A study of Mus musculus with 15 samples.

Results

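The FAM3C/LIFR double KO is a cell line made from NMuMG cells, a line of mouse mammary gland epithelium, that carries the shRNA knockdown of PCBP1 and CRISPR knockouts of both FAM3C and LIFR (genotype FAM3C -/-, LIFR -/-). It was taken by its label and is 1 of the 11 RNA-Seq libraries of Dataset 1 and 1 of the 15 samples of the series. It was compared with FAM3C KO clones 1 to 3 (FAM3C -/-), which share the knockdown of PCBP1 and the loss of FAM3C, so that the comparison asks what differs when LIFR is knocked out as well. LIFR KO clones 1 to 3 (LIFR -/-) and 4 shPCBP1 lines of wild type genotype at both genes (CT clones 1 to 3, treated with Cas9 without a gene-specific guide, and the unaltered line) are given beside it. All 11 lines carry the PCBP1 knockdown, and each gave 1 RNA sample. The knockout lines grew from diluted colonies after electroporation, so each is 1 clone with its own history, and the line in which the second gene of the double KO was removed is not given in the sources used here. With 1 library for the double KO there is no replicate error for it, no test was made and no p value is given. Differences are described against the spread of the 3 FAM3C KO clones.

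FAM3C encodes ILEI, a secreted protein that drives the epithelial-to-mesenchymal transition, and PCBP1 is an RNA-binding protein that holds back its translation. LIFR is the receptor for leukemia inhibitory factor. It pairs with gp130 (gene Il6st) and signals through JAK kinases to the transcription factor STAT3, whose targets include Socs3, Junb and Myc.

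The guides show where the coding sequences were cut, and that the gene-level RNA values below are no check of the knockouts, because a clone that has lost part of an exon can still make the rest of the transcript. The guide pairs were designed to cut out a short stretch of coding sequence in either of 2 exons per gene. Of the 8 guides listed for the genes, 6 were found whole in a GENCODE M21 transcript (GRCm38), all inside coding exons. Exons are numbered as in the study. The guides are written 5′ to 3′ with the NGG motif that Cas9 needs in capitals.
Fam3c exon 3, guide 2: tgcaaagttggtagtggccgTGG
Fam3c exon 5, guide 1: atcccacacttgtacctcggAGG
Fam3c exon 5, guide 2: cgtgggacccaagatctgccTGG
Lifr exon 2, guide 1: ttattgtctaccatccacgaTGG
Lifr exon 2, guide 2: catctgacgatgcatgcaaaCGG
Lifr exon 6, guide 1: gtaaagataccgttcagcacTGG
In Fam3c they lie at chr6:22339351-22339373 on the minus strand, chr6:22328648-22328670 on the plus strand and chr6:22328565-22328587 on the minus strand. In Lifr they lie at chr15:7154436-7154458 on the minus strand, chr15:7154514-7154536 on the plus strand and chr15:7166908-7166930 on the plus strand. Which pair made the double KO is not given in the sources used here.

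Levels are CPM (counts normalised to library size) as deposited, in which the lowest value of a library stands for no reads. Differences are on the log2(CPM + 0.1) scale, which shrinks those of low genes. They cover the 12599 of 13893 genes whose mean over the libraries reached 0.5 CPM. The lowest values imply totals of 16031859 to 46901675 reads for the 11 libraries and 21348271 for the double KO. At that depth 1 read is worth 0.0468 CPM in the double KO. The lowest value there is the same number, and a gene listed at it is read as having no reads. In the double KO 324 listed genes were at the lowest value, against 58 to 284 in the other libraries. Epithelial genes were well expressed: Cdh1 stood at 328 CPM, Krt8 at 399 and Krt18 at 693 in the double KO, against 246 to 362, 490 to 830 and 932 to 1202 in the FAM3C KO clones. Epcam was not among the listed genes. Of 18 markers of other cell types, 7 were listed, and their summed level was 8.53 CPM in the double KO, 9.72 to 12.4 in FAM3C KO and 6.26 to 13.7 over the other libraries.

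Several libraries stood apart in ways that touch every result. In the double KO the median gene was lower than the FAM3C KO mean by a log2 difference of -0.24, and differences are read against that shift. The shift followed GC content (the share of G and C bases in the longest annotated transcript). The median difference of the double KO was 0.55 for the 805 genes under 40% GC, 0.00 for the 2500 genes from 44 to 48% and -0.97 for the 544 genes of at least 60%. LIFR KO clones 2 and 3 had the same slope, with medians of 0.60 and 0.61 in the lowest class and -1.04 and -1.05 in the highest. LIFR KO clone 1 did not have it: its medians were -0.12 and 0.06.

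**Figure D1:**
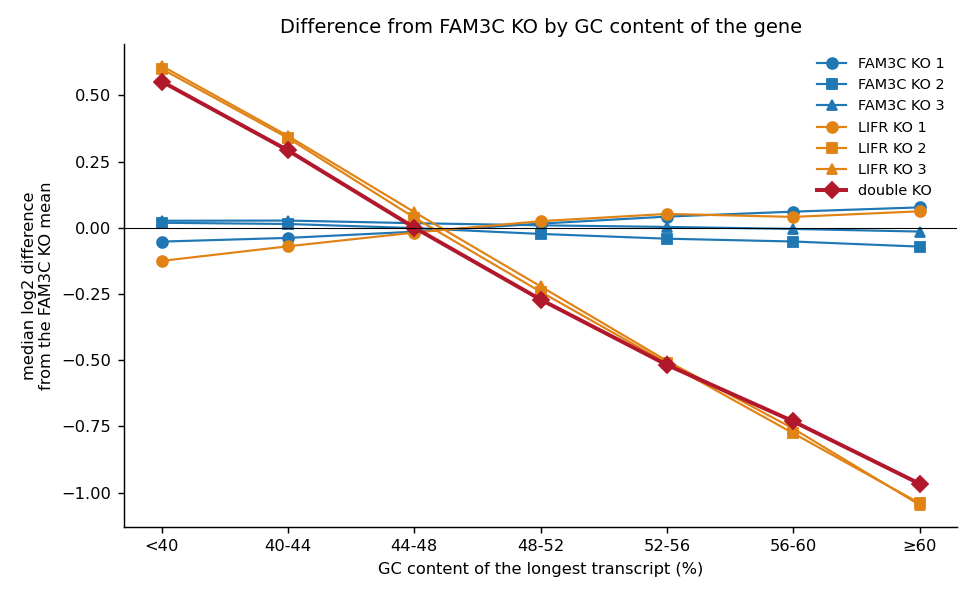
Median log2 difference from the FAM3C KO mean (vertical axis) in classes of gene GC content (horizontal axis, %), with 1 line for each FAM3C KO, LIFR KO and double KO library. The double KO, LIFR KO 2 and LIFR KO 3 run together from about 0.55 to 0.61 at the left to -0.97 to -1.05 at the right, while the other 4 libraries stay near 0.

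The 13 mRNAs of the mitochondrial genome, which are low in GC, moved with the same libraries. They made up 8.58% of the listed signal in the double KO, 7.22% in LIFR KO clone 2 and 7.16% in clone 3, and 3.14 to 4.06% in the other 8 libraries. The part of library preparation, RNA quality or batch in this shift was not tested, and for genes that differ in the double KO and in LIFR KO clones 2 and 3 alike, the GC shift and the loss of LIFR cannot be told apart. A second set of values was therefore made in which a smooth curve on GC was subtracted from each library's differences. The library labelled LIFR KO clone 3 also carried the pattern of the FAM3C KO clones at many genes, as described further on, so results that rest on it are given without it as well.

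Lifr (chr15:7090614-7197489, plus strand), the gene that sets the double KO apart by design, had its lowest level of all 11 libraries in the double KO. It stood at 4.36 CPM there, and at 13.5, 10.5 and 19.2 CPM in FAM3C KO clones 1 to 3. LIFR KO clones 1 to 3 had 34.9, 29.3 and 14.6 CPM. The CT clones had 25.8, 34.8 and 40.2 CPM and the unaltered shPCBP1 line 28.4 CPM. So the order from high to low ran from shPCBP1 and LIFR KO clones 1 and 2, whose ranges overlapped, through FAM3C KO and the library labelled LIFR KO clone 3, which also overlapped, to the double KO. The double KO lay -1.66 from the FAM3C KO mean on the log2 scale, where the SD of the 3 clones was 0.43, and -1.79 after GC correction. In a bulk library, fewer expressing cells and less RNA per cell cannot be told apart.

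Fam3c (chr6:22306520-22356243, minus strand) stood at 42.3 CPM in the double KO and at 26.4, 33.9 and 42.9 CPM in FAM3C KO clones 1 to 3, so it lay within their range. LIFR KO clones 1 to 3 had 50.0, 70.1 and 44.5 CPM, and 47.0 to 59.4 CPM in the 4 shPCBP1 lines. The double KO was thus below each line in which FAM3C was not targeted, and closest to LIFR KO clone 3 among them. Pcbp1, the gene that is knocked down in all of these lines, stood at 20.6 CPM in the double KO, against 33.6, 34.1 and 36.0 CPM in FAM3C KO. The LIFR KO clones, in number order, had 39.5, 22.5 and 19.9 CPM. Its log2 difference of -0.75 became -0.01 after GC correction.

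**Figure D2:**
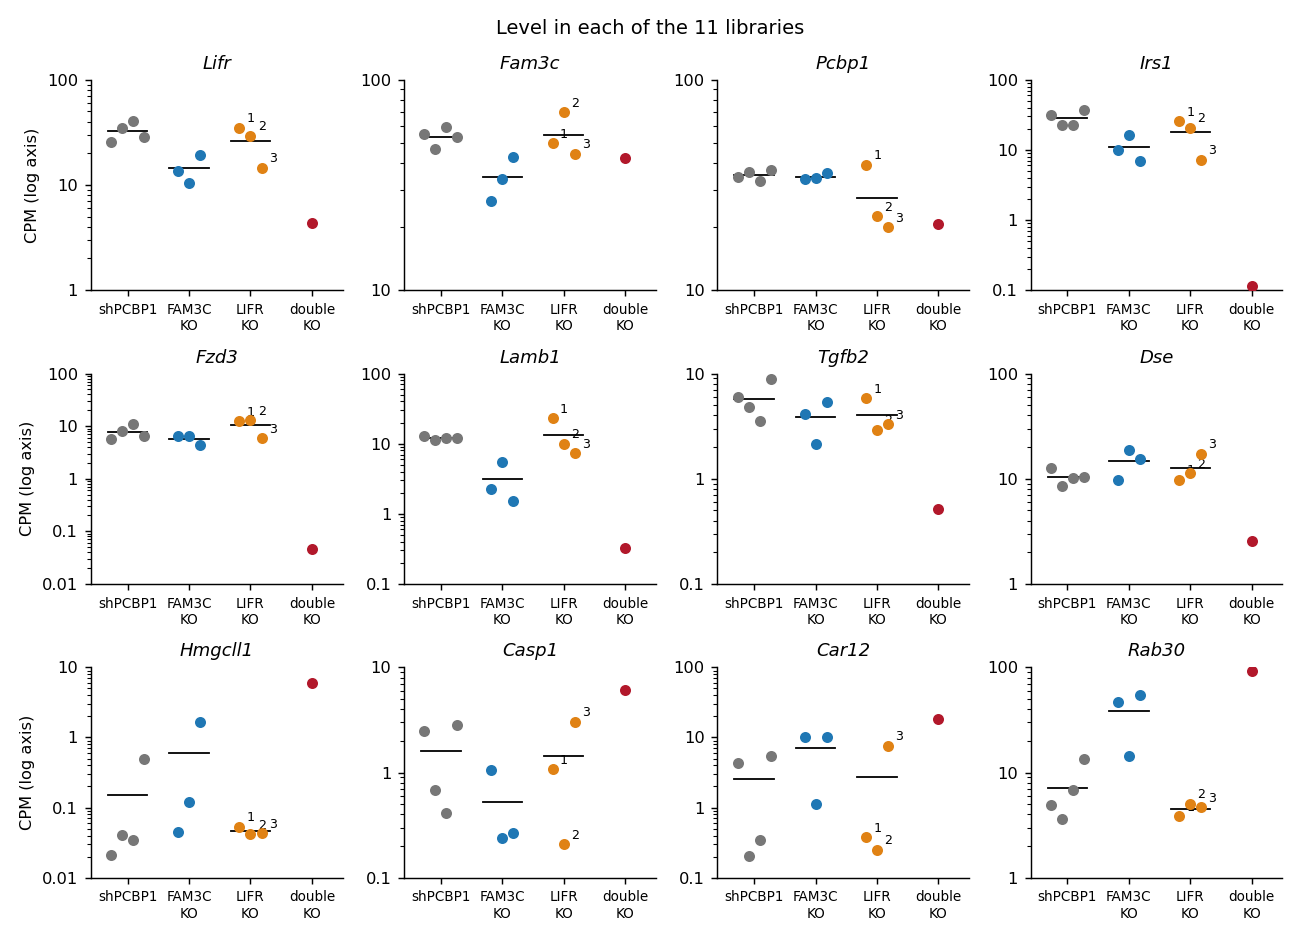
Level of 12 genes (CPM, log axis) in each of the 11 libraries, with points for libraries, black lines for the group means of shPCBP1, FAM3C KO and LIFR KO, and numbers for the LIFR KO clones. The double KO point is the lowest of all for Lifr, Irs1, Fzd3, Lamb1, Tgfb2 and Dse and the highest for Hmgcll1, Casp1, Car12 and Rab30, and it lies within the FAM3C KO points for Fam3c.

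A gene was called higher or lower when the double KO differed at least 2-fold from the FAM3C KO mean and lay outside all 3 clones. By this rule 114 genes were higher (0.905% of those tested) and 774 lower (6.14%), so that 12.8% of the called genes were higher. After GC correction 126 were higher (1.00%) and 236 lower (1.88%), and 34.8% of the called genes were higher. Of the genes first called, 55 higher and 204 lower ones were called again. The genes called lower had a median GC content of 58.1% and those called higher of 40.6%, against 49.7% for all tested genes.

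The same rule was applied to each LIFR KO library. Against the FAM3C KO mean, 274 genes were higher and 582 lower in LIFR KO clone 1, 359 and 1549 in clone 2, and 220 and 899 in clone 3. After GC correction the counts were 276 and 594, 325 and 574, and 172 and 197. The double KO had fewer higher genes than each LIFR KO clone under both treatments of the data. As deposited it had more lower genes than clone 1 and fewer than clones 2 and 3, and after correction more than clone 3 and fewer than clones 1 and 2.

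Taken gene by gene, the median absolute log2 difference from the double KO was smallest for LIFR KO clone 3 (0.141) and clone 2 (0.214), and larger for FAM3C KO clones 3, 2 and 1 (0.395, 0.416 and 0.444), the 4 shPCBP1 lines (0.429 to 0.486) and LIFR KO clone 1 (0.490). After GC correction the order was LIFR KO clone 3 (0.134), FAM3C KO clones 3 and 1 (0.149 and 0.162), LIFR KO clone 2 (0.208) and FAM3C KO clone 2 (0.216), with the shPCBP1 lines at 0.209 to 0.252 and LIFR KO clone 1 at 0.274. The FAM3C KO clones differed among themselves by 0.087 to 0.149 on the corrected scale. A count of 2-fold differences, whichever the direction, gave 345 genes between the double KO and FAM3C KO clone 3 after correction, 449 for clone 1 and 779 for clone 2, where pairs of FAM3C KO clones differed at 263 to 613 genes. It gave 450, 970 and 1188 for LIFR KO clones 3, 2 and 1. On the corrected scale FAM3C KO clones 1 and 3 were the nearest pair of that group (0.087 and 263 genes). The double KO was further from each of them than they were from each other. Its distance from clone 2 (0.216) exceeded that between any pair of FAM3C KO clones.

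**Figure D3:**
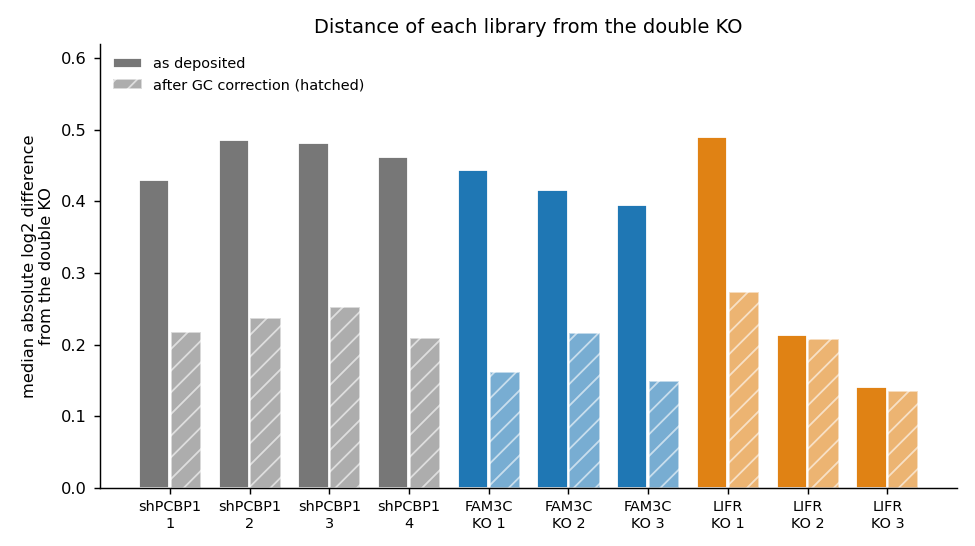
Median absolute log2 difference between the double KO and each of the other 10 libraries (vertical axis), as deposited (plain bars) and after GC correction (hatched bars), where shPCBP1 1 to 3 are the CT clones and 4 the unaltered line. LIFR KO 3 is nearest under both (0.141 and 0.134), and the FAM3C KO 1 and 3 bars drop from 0.444 and 0.395 to 0.162 and 0.149.

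Genes that separate FAM3C KO from shPCBP1 were then read in the double KO, with each library's own values side by side, since these comparisons share their control lines. In 159 genes all 3 FAM3C KO clones lay below all 4 shPCBP1 lines with a mean difference of at least 2-fold, and in 138 they lay above. Bcat1, an enzyme of branched-chain amino acid breakdown, stood at 22.3 to 48.4 CPM in shPCBP1, at 0.133, 0.0800 and 0.0384 CPM in FAM3C KO clones 1 to 3 and at 0.0937 CPM in the double KO. In LIFR KO clones 1 and 2 it stood at 43.5 and 42.6 CPM, and in the library labelled LIFR KO clone 3 at 0.0858 CPM. Maged2 was listed at the value of no reads in all 3 FAM3C KO clones, the double KO and LIFR KO clone 3, while shPCBP1 had 6.05 to 11.3 CPM and LIFR KO clones 1 and 2 had 7.03 and 4.03 CPM. H1f10, a linker histone, was at no reads in FAM3C KO clone 3, LIFR KO clone 3 and the double KO, at 0.133 and 0.274 CPM in FAM3C KO clones 1 and 2, and at 9.66 to 22.6 CPM in shPCBP1. The double KO and LIFR KO clone 3 therefore had these losses together with the FAM3C KO clones.

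Cyfip2, which acts in actin regulation, stood at 0.0937 CPM in the double KO, 0.354, 0.240 and 0.115 CPM in FAM3C KO, and 0.376, 9.90 and 0.172 CPM in the LIFR KO clones 1 to 3. Chst11, a chondroitin sulfotransferase, was at no reads in the double KO and LIFR KO clone 3, at 0.177, 1.2 and 1.04 CPM in FAM3C KO, at 0.751 and 0.208 CPM in the LIFR KO clones 1 and 2, and at 24.5 to 62.4 CPM in shPCBP1. Chst11 was low in every knockout line. Its level in the double KO was below that of each FAM3C KO clone.

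The gains ran the same way. Pdcd1lg2, the gene of the checkpoint ligand PD-L2, stood at 8.37, 5.44 and 9.49 CPM in FAM3C KO, 6.51 CPM in the double KO and 6.22 CPM in LIFR KO clone 3, against 0.107 and 0.125 CPM in the LIFR KO clones 1 and 2. Tspan6 stood at 8.68, 10.4 and 8.80 CPM in FAM3C KO, 11.2 CPM in the double KO and 15.4 CPM in LIFR KO clone 3, and at 0.107 CPM or no reads in the other 2 LIFR KO clones. Rhox5, an X-linked homeobox gene, was high in the double KO at 114 CPM, within the 29.1, 57.2 and 119 CPM of FAM3C KO and above the 15.4 CPM of LIFR KO clone 3. Slc27a6 stood at 5.76 CPM in the double KO and Celsr2 at 3.14 CPM, against 6.46 to 19.7 and 2.40 to 18.8 CPM in FAM3C KO. Slc27a6 was thus slightly under the 3 clones and Celsr2 within them.

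Over the 159 losses the double KO lay within the range of the 3 FAM3C KO clones in 74, LIFR KO clone 3 in 87, and LIFR KO clones 1 and 2 in 27 and 37. Over the 138 gains the counts were 43 for the double KO, 36 for LIFR KO clone 3, and 2 and 4 for LIFR KO clones 1 and 2. Of all tested genes, 19.4% lay within that range in the double KO and 19.2% in LIFR KO clone 3, 30.7% in clone 1 and 16.9% in clone 2. After GC correction the double KO lay within it in 65 losses and 59 gains, against 36.7% of all tested genes. The median difference from the FAM3C KO mean was -0.22 over the losses and -0.42 over the gains in the double KO, against 1.30 and -1.74 in LIFR KO clone 1 and 1.15 and -2.19 in clone 2.

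Some of these genes stood back towards shPCBP1 in the double KO. This was counted where a library lay at least 2-fold from the FAM3C KO mean in that direction and beyond all 3 clones. It held for 19 of 138 gains and 8 of 159 losses in the double KO. The counts were 116 and 92 in LIFR KO clone 1, 121 and 88 in clone 2 and 36 and 18 in clone 3. Of all 12599 tested genes, the same rule gave 774 lower (6.14%) and 114 higher (0.905%) in the double KO. It gave 582 and 274 in LIFR KO clone 1, 1549 and 359 in clone 2, and 899 and 220 in clone 3. A gain that stands back counts as lower, and these counts were not repeated after GC correction. Elfn2 stood at 3.68, 2.08 and 2.00 CPM in FAM3C KO and at 0.281 CPM in the double KO, within the 0.235 to 0.378 CPM of shPCBP1. LIFR KO clones 1 to 3 had 0.107, 0.0832 and 0.214 CPM, so Elfn2 was low in every line whose label includes a LIFR knockout. Wdfy4 stood at 24.4, 25.1 and 12.8 CPM in FAM3C KO, 1.17 CPM in the double KO, and 0.322, 0.250 and 3.69 CPM in the LIFR KO clones 1 to 3. Samd5 differed from that: the double KO had 0.468 CPM against 7.93, 11.8 and 6.92 CPM in FAM3C KO, while LIFR KO clone 3 had 16.2 CPM. Among the losses, Tfpi, an inhibitor of blood coagulation, stood at 1.97 CPM in the double KO, 0.576, 0.840 and 0.384 CPM in FAM3C KO and 1.96 to 3.80 CPM in shPCBP1. Samd5 and Tfpi were picked after their values were seen.

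In 23 genes the double KO was higher than FAM3C KO, also at least 2-fold above the mean of LIFR KO clones 2 and 3, and above each of the other 10 libraries. They are 20.2% of the 114 called higher, 3 are predicted genes, and 20 met the same conditions after GC correction. Their median GC content was 47.0% and their median level 2.47 CPM over the libraries, against 49.7% and 26.1 CPM for all tested genes. They are mostly genes of low expression, and the 11 libraries are spread widely for several of them.

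Hmgcll1, which cleaves HMG-CoA, led this group. It stood at 6.04 CPM in the double KO and at 0.0443, 0.120 and 1.65 CPM in FAM3C KO clones 1 to 3, the first of these being no reads. All 3 LIFR KO clones and the CT clones were at no reads, and the unaltered line had 0.499 CPM. No fold is given against those libraries. The SD of the FAM3C KO clones was 1.93 on the log2 scale, so the reference for this gene is itself wide.

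Casp1, the protease that matures IL-1 in the inflammasome, stood at 6.04 CPM in the double KO, 1.06, 0.240 and 0.269 CPM in FAM3C KO, 1.07, 0.208 and 3.04 CPM in LIFR KO, and 0.412 to 2.81 CPM in shPCBP1. Its log2 difference from FAM3C KO was 3.54 (3.18 after GC correction). Disp1, which releases Hedgehog proteins from cells, stood at 6.84 CPM in the double KO, 0.487, 1.76 and 0.768 CPM in FAM3C KO and 0.404 to 2.58 CPM in the other 7 libraries. By the rule for this group the other 10 libraries were lower. The nearest of them stood at 3.04 CPM for Casp1 and 2.58 CPM for Disp1. Clec2f, a C-type lectin, stood at 4.31 CPM in the double KO and at 0.0832 to 1.06 CPM in the other 10, and Cox20, an assembly factor of cytochrome oxidase, at 2.26 CPM against 0.0623 to 1.14 CPM.

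For Car12, Rab30 and B4galt4 the double KO topped a level that some FAM3C KO clones already had. Car12, a carbonic anhydrase, stood at 18.3 CPM in the double KO, 10.01, 1.12 and 10.2 CPM in FAM3C KO and 0.376, 0.250 and 7.68 CPM in LIFR KO. Rab30, a Golgi GTPase, stood at 92.3 CPM in the double KO, 47.2, 14.4 and 54.9 CPM in FAM3C KO, and 3.86, 5.03 and 4.67 CPM in LIFR KO. The 3 LIFR KO clones lay near the 3.60 to 13.5 CPM of shPCBP1, so Rab30 lay above all 4 shPCBP1 lines in each line labelled as lacking FAM3C but not in LIFR KO clone 3. Its difference of 1.46 from the FAM3C KO mean became 0.89 after GC correction, below 2-fold. B4galt4, a galactosyltransferase, stood at 11.3 CPM in the double KO and 10.8 CPM in FAM3C KO clone 3, with 2.66 and 1.84 CPM in clones 1 and 2.

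Fhl1, a LIM protein, and Lrrc75b stood at 10.5 and 9.74 CPM in the double KO, against highest values of 8.53 and 9.17 CPM elsewhere and 0.960 and 0.720 CPM in FAM3C KO clone 2. Heg1, a membrane protein of cell junctions, stood at 14.6 CPM in the double KO and at 1.13, 0.707 and 0.943 CPM in the LIFR KO clones 1 to 3, with 6.38, 4.27 and 12.5 CPM in FAM3C KO. The other named members, Cyp1b1 (48.5 CPM), Mfap3l (26 CPM), Sult1c2 (13.8 CPM), Cd37 (4.64 CPM), Mpp3 (2.81 CPM), Prelid2 (2.76 CPM), Bend6 (1.83 CPM), Cfap74 (1.78 CPM) and Scel (1.55 CPM), lay up to 2.17 above the FAM3C KO mean on the log2 scale. Of these, Mfap3l and Sult1c2 came under 2-fold after GC correction. Many of the higher genes rest on 1 FAM3C KO clone. Without clone 2 the difference of Car12 was 0.85, of Rab30 0.86, of Fhl1 0.83 and of Lrrc75b 0.35, all under 2-fold. The same held for Bend6, Cyp1b1, Heg1, Mfap3l, Mpp3, Scel and Sult1c2 (0.44 to 0.90), and without clone 1 for Cfap74 and Cd37 (0.59 and 0.81).

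In 96 genes the double KO was lower by the same conditions, 12.4% of the 774 called lower. After GC correction 68 of the 96 still met them. Their median GC content of 49.7% equalled that of all tested genes, unlike the 58.1% of all genes called lower. In 18 of them the double KO had no reads, where 74 of all tested genes did so. Their median level was 2.25 CPM.

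Irs1, the adaptor that carries signals from the insulin and IGF-1 receptors, led them. It stood at 0.115 CPM in the double KO and at 10.1, 16.1 and 6.95 CPM in FAM3C KO, 25.7, 20.7 and 7.24 CPM in LIFR KO, and 22.8 to 37.2 CPM in shPCBP1. The log2 difference from FAM3C KO was -5.61 (SD of the clones 0.60), and -5.33 after GC correction. Fzd3, a receptor for Wnt proteins, had no reads in the double KO and 6.51, 6.4 and 4.46 CPM in FAM3C KO, 12.6, 13.1 and 5.92 CPM in LIFR KO and 5.67 to 10.8 CPM in shPCBP1. Both genes were present in every other library and close to absent in the double KO.

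Lamb1, the laminin beta-1 chain of basement membranes, stood at 0.328 CPM in the double KO, 2.26, 5.52 and 1.54 CPM in FAM3C KO, 23.3, 9.94 and 7.25 CPM in LIFR KO, and 11.1 to 12.8 CPM in shPCBP1. FAM3C KO lay below shPCBP1 and the double KO lay below FAM3C KO. Tgfb2, the growth factor TGF-beta 2, stood at 0.515 CPM in the double KO, 4.12, 2.16 and 5.34 CPM in FAM3C KO, 5.79, 2.91 and 3.30 CPM in LIFR KO and 3.57 to 8.79 CPM in shPCBP1. Dse, the epimerase that turns chondroitin into dermatan sulfate, stood at 2.58 CPM in the double KO, 9.83, 18.8 and 15.4 CPM in FAM3C KO, and 8.49 to 17.4 CPM in the other 7 libraries. Hapln4, a link protein of hyaluronan, stood at 0.749 CPM in the double KO and at 12.5, 12.0 and 12.4 CPM in FAM3C KO, the tightest reference of these genes with an SD of 0.03 on the log2 scale. In LIFR KO Hapln4 had 6.81, 3.41 and 7.80 CPM.

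Gpx8, an ER peroxidase, stood at 0.422 CPM in the double KO and at 4.11 to 7.04 CPM in FAM3C KO, and Hpdl at 0.234 against 1.73 to 3.19 CPM. Klf12, a transcription factor, stood at 0.328 CPM in the double KO and 1.02, 2.28 and 2.31 CPM in FAM3C KO. Arhgdib, a regulator of small GTPases, stood at 0.281 CPM in the double KO, 2.75, 15.8 and 9.38 CPM in FAM3C KO and 1.56 to 2.74 CPM in LIFR KO. Arhgdib was below FAM3C KO by at least 2-fold in all 3 LIFR KO clones too, and lower again in the double KO.

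Apob, the apolipoprotein of liver and gut lipoproteins, varied widely among the FAM3C KO clones. It stood at 7.87 CPM in the double KO, 11.6, 1579 and 199 CPM in FAM3C KO, 377, 49.5 and 18.8 CPM in LIFR KO and 596 to 1167 CPM in shPCBP1. Its SD over the FAM3C KO clones was 3.55 on the log2 scale, and the double KO lay close to FAM3C KO clone 1. Several developmental regulators were among the 96, picked here after their values were seen. Gata2 and Lmx1a had no reads in the double KO, with 0.154 to 1.28 and 0.0768 to 2.04 CPM in FAM3C KO. En1 stood at 0.234 CPM against 1.34 to 4.32 CPM, and Slit2, a guidance ligand, had no reads against 0.753 to 3.60 CPM in FAM3C KO and 25.7 CPM in LIFR KO clone 2. For Gata2 and Lmx1a the low values of FAM3C KO clone 3 lie within a few reads of the double KO.

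**Figure D4:**
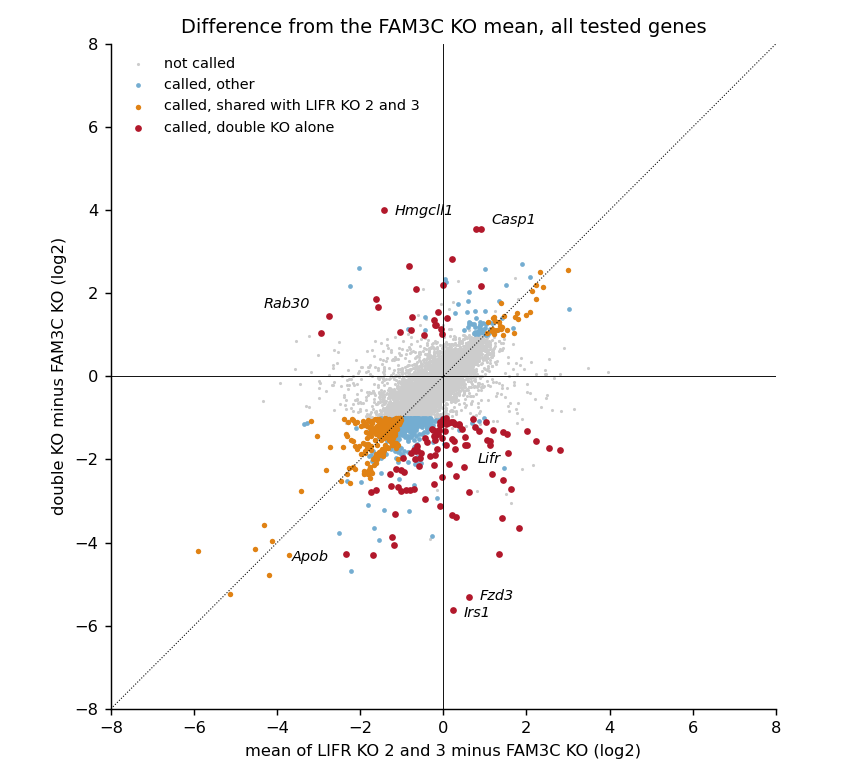
Log2 difference of the double KO from the FAM3C KO mean (vertical axis) against that of the mean of LIFR KO clones 2 and 3 (horizontal axis) for the 12599 tested genes, with the line of equal difference dotted and 7 genes labelled. The 23 higher and 96 lower genes of the double KO alone (red) lie off the dotted line, Irs1 and Fzd3 at the bottom and Hmgcll1 at the top, while the 281 lower and 30 higher genes shared with LIFR KO 2 and 3 (orange, less the few that are also red) lie along it.

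The groups just described depend on which shifted library serves as reference. Without LIFR KO clone 3 there were 24 higher and 101 lower genes, and without LIFR KO clone 2 there were 15 and 83. Leaving out FAM3C KO clone 2 left 14 higher genes.

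Genes that the double KO shared with LIFR KO clones 2 and 3, each at least 2-fold from the FAM3C KO mean on the same side, were 30 of the 114 called higher (26.3%) and 281 of the 774 called lower (36.3%). With LIFR KO clone 2 by itself the counts were 46 and 406, and with clone 3 by itself 59 and 431, where 2.99% and 12.5% of all tested genes were 2-fold higher and lower in clone 2 and 1.90% and 7.27% in clone 3. These comparisons share the FAM3C KO clones as their reference. After GC correction 23 higher and 44 lower genes were shared with both clones. With clone 2 by itself the counts were 42 and 94, and with clone 3 by itself 45 and 85. Of all tested genes, 2.68% were then 2-fold higher and 4.78% lower in clone 2, and 1.53% and 1.69% in clone 3. Before correction the lower genes shared with both clones had a median GC content of 60.5% and the higher ones of 36.4%.

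LIFR KO clone 1, the clone without the GC shift, by itself shared 22 of the genes called higher and 90 of those called lower. Of all tested genes, 2.35% were 2-fold higher and 4.79% lower in that clone. After GC correction it shared 35 and 55, against 2.38% and 4.89% of all tested genes. Of the genes shared with LIFR KO clones 2 and 3, 6 higher and 30 lower ones were shared with clone 1 as well. In Lrrk2, Ehf, Pls1 and Acnat2, FAM3C KO clone 2 had the lowest value of the 3 clones. Lrrk2, a kinase, stood at 25.6 CPM in the double KO and 24.5, 0.480 and 24.3 CPM in FAM3C KO, with 32.3, 40.7 and 26.9 CPM in LIFR KO. Ehf, an epithelial transcription factor, stood at 54.1 CPM in the double KO and 37.9, 5.76 and 34.3 CPM in FAM3C KO, with 44.1 to 56.1 CPM in LIFR KO. Pls1, an actin bundler, stood at 7.03 CPM in the double KO, 2.17, 0.440 and 2.96 CPM in FAM3C KO and 5.87 to 8.82 CPM in LIFR KO, and lay above each FAM3C KO clone more than 2-fold. Casp4 and Acnat2 stood at 1.36 and 2.25 CPM in the double KO, against highest FAM3C KO values of 0.797 and 1.82 CPM. Without FAM3C KO clone 2 the differences of Lrrk2, Ehf and Acnat2 were 0.07, 0.58 and 0.72, and without clone 3 that of Casp4 was 0.97, all under 2-fold.

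The lower ones were led by Fhod3, a formin, with 0.187 CPM in the double KO, 3.10, 10.8 and 5.19 CPM in FAM3C KO and 0.322, 0.125 and 0.729 CPM in LIFR KO. Fhod3 was low in all lines labelled as LIFR knockouts, though CT clone 2 had 0.525 CPM too. Wdfy4 and Elfn2, given above, followed. Nrtn, the growth factor neurturin, stood at 0.375 CPM in the double KO, 2.48 to 2.97 CPM in FAM3C KO and 0.458 to 0.912 CPM in LIFR KO, but its difference of -2.56 became -0.80 after GC correction at a GC content of 72.8%. Jag2, a Notch ligand, stood at 22.7 CPM in the double KO, 60.3, 54.7 and 46.3 CPM in FAM3C KO and 12.4, 11.5 and 25.9 CPM in LIFR KO, and its difference of -1.23 became -0.25.

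Genes shared with LIFR KO clones 2 and 3 but not with clone 1 were 24 higher and 251 lower. Ulk4 stood at 52.7 CPM in the double KO, 13.3, 9.85 and 15.4 CPM in FAM3C KO and 16.4, 63.6 and 49.7 CPM in LIFR KO. Its difference of 2.05 became 2.49 after GC correction, so it did not follow the GC trend. Tmem265 stood at 0.0556 CPM in the double KO, 3.42 to 4.76 CPM in FAM3C KO, 5.16 CPM in LIFR KO clone 1 and 0.178 and 0.101 CPM in clones 2 and 3, and its difference of -4.79 became -4.47. Eda2r, a receptor of the TNF family, stood at 42.8 CPM in the double KO, 5.18, 30.0 and 20.6 CPM in FAM3C KO, and 22.7, 44.1 and 59.3 CPM in LIFR KO, and its difference of 1.53 became 0.78 without FAM3C KO clone 1. Ulk4 and Tmem265 thus separated the double KO and LIFR KO clones 2 and 3 from all other libraries with a GC near the middle, of 52.7% and 50.9%. Zfp935 stood at 4.57 CPM in the double KO against 0.352 to 2.71 CPM in FAM3C KO, and Adra1d at 0.141 against 1.15 to 1.56 CPM. A second gene listed as Zc3h11a stood at 0.516 CPM against 2.06 to 5.41 CPM, and since it bears the name of another listed gene its reads may be split between them.

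The histone genes of chromosome 13 had the lowest values of any stretch of the genome that was read. Of 212 windows of 10 Mb with at least 20 tested genes, the one from 20 to 30 Mb of chromosome 13 had the lowest GC-corrected median, -0.78 over 84 genes. It holds 53 histone genes, whose mRNAs are made in S phase and end without a poly(A) tail. These genes are near copies of each other, so single values are uncertain and their sum is given. It was 2293 CPM in the double KO, 7548, 6456 and 6902 CPM in FAM3C KO, 9486, 3282 and 2429 CPM in the LIFR KO clones 1 to 3, and 7643 to 8759 CPM in shPCBP1. Of the 53, 51 were called lower, and 29 after GC correction, against 6.14% and 1.88% of all tested genes. The group was picked after its values were seen.

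In 45 of the 53 histone genes the double KO had the lowest value of the 11 libraries. H2ac13, a core histone, stood at 13.8 CPM in the double KO and at 82.1, 70.8 and 73.3 CPM in FAM3C KO. H1f4, a linker histone, stood at 206 CPM in the double KO and at 486, 434 and 431 CPM in FAM3C KO, and H1f2 at 162 against 431, 369 and 379.6 CPM. These 3 were no longer called after GC correction, with differences of -0.89, -0.78 and -0.70. H1f3, low in GC at 39.8%, stood at 119 CPM against 298, 234 and 258 CPM, and its difference of -1.14 became -1.59. The histone genes had a median GC content of 57.9%, and their median difference of -1.73 became -1.02 after GC correction, against -0.35 in LIFR KO clone 2 and -0.86 in clone 3. The other 31 genes of the window had a median difference of -0.08. So the low values belong to the histone genes and not to the stretch as a whole. Of the 41 cell cycle genes tested, 0 were called higher and 1 lower, against 0.905% and 6.14% of all tested genes. The lower one was Cdkn2a, at 0.796 CPM against 2.34 to 3.60 CPM. The median of the 41 was -0.23, close to the -0.24 of all genes.

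Chromosome medians were close to 0 in the double KO after GC correction, from -0.12 on chromosome 18 to 0.06 on chromosome X. On chromosome 18 it was FAM3C KO clone 2 that differed, with a median of 0.31 before correction where clones 1 and 3 had -0.16 and -0.15. On chromosome 15, where Lifr lies, the corrected median was -0.01 in the double KO and LIFR KO clone 3 but -0.42 and -0.43 in LIFR KO clones 1 and 2. On chromosome 19 it was -0.01 and -0.02 in the former pair and 0.19 and 0.23 in the latter. By whole chromosomes, then, the double KO and LIFR KO clone 3 lay with FAM3C KO clones 1 and 3, and LIFR KO clones 1 and 2 lay together.

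The IL-6 family receptors, ligands and kinases are the pathway of LIFR itself. Of 19 tested, 0 were called higher and 1 lower, against 0.905% and 6.14% of all tested genes. After GC correction none was called in either direction. Their median was -0.47, and -0.06 after correction, where all genes had -0.24 before correction. Il6st, the gp130 partner of LIFR, stood at 114 CPM in the double KO and at 129, 126 and 132 CPM in FAM3C KO. Jak1 stood at 139 CPM against 133, 132 and 129 CPM. Lif, the ligand, stood at 39.3 CPM against 59.2, 76.9 and 61.6 CPM, and Stat3 at 41.0 CPM against 61.0, 55.9 and 63.1 CPM. Socs3, the feedback inhibitor, stood at 47.5 CPM against 104, 79.4 and 99.3 CPM. Lif, Stat3 and Socs3 were thus below all 3 clones, as were 7003 of the 12599 tested genes. These 3 genes differed from the mean of the clones by less than 2-fold (-0.73, -0.55 and -0.98), with corrected differences of -0.28, -0.12 and -0.19. The gene called lower was Socs1, at 1.17 against 2.28 to 2.69 CPM. Osmr, whose protein pairs with gp130 for oncostatin M, was at no reads in the double KO and under 0.1 CPM in each FAM3C KO clone.

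Of 28 STAT3 response genes tested, 4 were called lower and 0 higher, against 6.14% and 0.905% of all tested genes, and none in either direction after GC correction. Their median moved from -0.58 to -0.09. Cebpb stood at 50.2 CPM in the double KO, 190, 171 and 186 CPM in FAM3C KO, and 166, 50.0 and 42.7 CPM in the LIFR KO clones 1 to 3. Junb stood at 104 CPM, 291, 277 and 271 CPM, and 346, 132 and 94.0 CPM in the same order. Pim3 stood at 53.2 CPM against 122 to 175 CPM in FAM3C KO, and Cebpd at 3.23 against 6.37 to 7.17 CPM. The first 3 of these have GC contents of 61.9 to 67.2%, and in LIFR KO clone 1, which lacks the GC shift, Cebpb, Junb and Pim3 stood at 166, 346 and 119.8 CPM. Myc stood at 104 CPM against 166, 174 and 146 CPM in FAM3C KO, with a corrected difference of -0.16.

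Immediate early genes, which respond within minutes to growth signals, had 6 of 22 called lower (Fosb, Jund, Ier2, Nr4a1, Dusp2 and Dusp5), against 6.14% of all tested genes, and 0 after GC correction, against 1.88%, with a median of -0.69 that became -0.18. Jund stood at 55.9 CPM in the double KO, 136 to 192 CPM in FAM3C KO and 152, 40.6 and 49.0 CPM in LIFR KO. Nr4a1 stood at 4.03 against 6.65 to 11.7 CPM, and LIFR KO clones 1 to 3 had 4.88, 3.70 and 4.07 CPM. For Nr4a1 the LIFR KO clone without the GC shift was also below all 3 FAM3C KO clones.

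**Figure D5:**
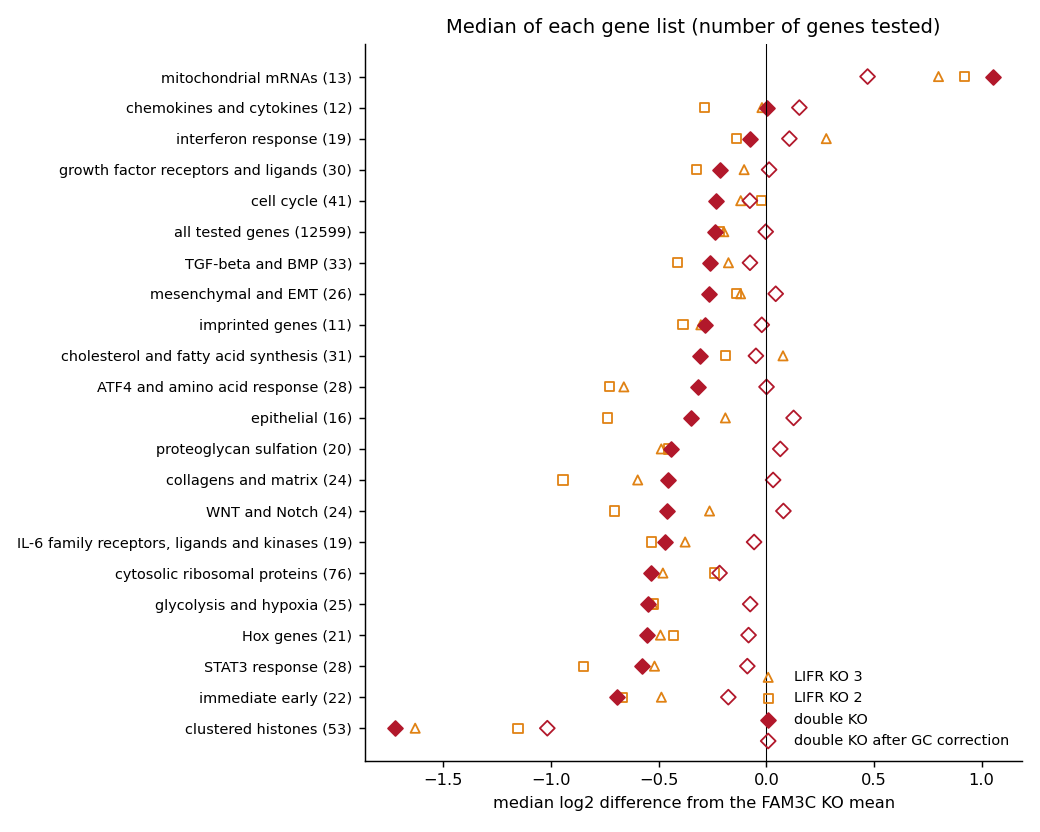
Median log2 difference from the FAM3C KO mean for each gene list (rows, number of genes tested in brackets) in the double KO as deposited (filled diamonds) and after GC correction (open diamonds), with LIFR KO clones 2 (squares) and 3 (triangles) as deposited. Most filled diamonds lie left of 0 beside the LIFR KO symbols and most open ones lie within about 0.2 of 0, apart from the clustered histones at -1.02 and the mitochondrial mRNAs at 0.47.

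Counts for genes of the epithelial and mesenchymal states are set beside those of all tested genes. Of all tested genes, 6.14% were called lower and 0.905% higher, and 1.88% and 1.00% after GC correction. Of 16 epithelial genes tested, 1 was called lower (Pkp3, 0.375 against 0.440 to 1.38 CPM) and 0 higher, and 0 and 0 after GC correction, with medians of -0.35 and 0.13. Of 26 mesenchymal genes, 2 were called lower before and after correction and 0 higher, with medians of -0.26 and 0.04. These were Tgfb2, given above, and Tagln, a smooth muscle actin-binding protein, at 0.239 CPM in the double KO and 0.872 to 1.30 CPM in FAM3C KO. Vim stood at 1163 CPM against 1424, 1304 and 1433 CPM and Fn1 at 291 against 444, 342 and 418 CPM. Twist1 was at no reads in the double KO and in all FAM3C KO and LIFR KO clones, while the CT clones had 1.41, 0.0808 and 0.172 CPM and the unaltered line 3.62 CPM.

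Of 24 collagen and matrix genes, 2 were called lower (Lamb1 and Col7a1), where 6.14% of all tested genes were, and 1 after GC correction, Lamb1. Of 20 genes of proteoglycan sulfation, 1 was called higher and 4 lower, against 0.905% and 6.14% of all tested genes, and 2 and 2 after correction, against 1.00% and 1.88%. The higher one was Chst1, a keratan sulfotransferase, with 11.4 CPM in the double KO, 5.89, 0.600 and 3.80 CPM in FAM3C KO, 0.590, 1.91 and 0.0429 CPM in LIFR KO and 12.0 to 29.8 CPM in shPCBP1. Chst1 was low in every single knockout and just under the shPCBP1 range in the double KO. The lower ones were Chst11 and Dse, given above, and Chpf and Xylt2, which make the chondroitin chain and its linker. Chpf stood at 10.02 CPM against 21.3 to 26.9 CPM and Xylt2 at 13.2 against 28.3 to 31.0 CPM in FAM3C KO, with corrected differences of -0.49 and -0.28.

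Of 33 TGF-beta and BMP genes, 6 were called lower and 0 higher, against 6.14% and 0.905% of all tested genes. After correction 2 were lower and 1 higher, against 1.88% and 1.00%. Smad9 stood at 0.281 CPM against 0.440 to 1.46 CPM and Id4 at 0.141 against 0.307 to 0.720 CPM in FAM3C KO, and both were called again after correction, though Id4 came to -0.97 without FAM3C KO clone 2, where Bmp7 came to -0.98. Bmp7 stood at 0.281 CPM in the double KO, 0.974, 2.84 and 0.423 CPM in FAM3C KO, 2.68, 6.16 and 0.129 CPM in LIFR KO and 3.43 to 28.0 CPM in shPCBP1. Smad6, Smad7 and Gdf15 differed by -1.01, -1.07 and -1.37, and by -0.09, -0.39 and -0.43 after correction.

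The remaining lists are set beside the 6.14% of all tested genes called lower and the 0.905% called higher. WNT and Notch genes had 2 of 24 lower, Fzd1 at 2.34 against 4.04 to 7.48 CPM and Jag2. Glycolysis and hypoxia genes had 2 of 25 lower, Pfkl (29.8 against 54.3 to 67.7 CPM) and Eno2 (3.84 against 7.31 to 9.22 CPM), and 1 higher, Car12. Cholesterol and fatty acid genes had 1 of 31 lower, Srebf1, at 64.6 against 122 to 144 CPM. Growth factor receptors and ligands had 1 of 30 lower, Efnb1, at 2.76 against 6.34 to 7.48 CPM. Of these 6 lower genes none was called after GC correction, where 1.88% of all tested genes were.

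Hox genes had 2 of 21 lower, Hoxa4 (0.703 against 1.35 to 1.83 CPM) and Hoxa7 (4.26 against 5.43 to 13.1 CPM), and imprinted genes 1 lower of 11, Phlda2, and 1 higher, Mest, at 1.83 against 0.520 to 0.918 CPM. Mest differed by 1.27, and by 1.36 after correction. Of all tested genes, 6.14% were lower and 0.905% higher, and 1.88% and 1.00% after GC correction. Of 4 other FAM3 and PCBP family genes, 1 was lower, Pcbp4, at 14.6 against 28.7 to 33.0 CPM, with a corrected difference of -0.11. Among 19 interferon response genes, 12 chemokines and cytokines and 28 genes of the ATF4 and amino acid response, 0 were called in either direction, and 1 interferon gene was called higher after correction. The interferon gene was Oasl1, at 2.44 CPM against 0.886, 2.28 and 1.08 CPM. Ccl2, a chemokine for monocytes, stood at 262 CPM against 248, 246 and 270.1 CPM, and Slc38a2, an amino acid transporter, at 707 against 648, 636 and 675 CPM.

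Of the 76 cytosolic ribosomal protein genes, 5 were called lower and 0 higher, and 1 and 1 after correction, with medians of -0.54 and -0.22. The shares of all tested genes were 6.14% lower and 0.905% higher, and 1.88% and 1.00% after correction. Rps2 stood at 138 CPM in the double KO, 412, 481 and 420 CPM in FAM3C KO, and 500, 209 and 163 CPM in LIFR KO, and stayed at -1.04 after correction. Rplp1, Rpl13, Rpl18 and Rpl36 lay between -1.23 and -1.02 and came to between -0.68 and -0.26. Ribosomal protein genes have many processed copies, so their reads may be split. Of the 13 mitochondrial mRNAs, 8 were called higher and 0 after correction, with medians of 1.05 and 0.47. One of the 8, mt-Nd1, stood at 10278 CPM in the double KO, 4525, 5237 and 5150 CPM in FAM3C KO, and 4258, 7709 and 8749 CPM in LIFR KO. Both mt-Atp8 (606 against 173, 179 and 185 CPM) and mt-Nd3 (425 against 140.1, 170.02 and 165 CPM) were of the 8. All 13 lay above all 3 FAM3C KO clones, as did 3146 of the 12599 tested genes.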

How the data were processed

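RNA from 11 cell lines, 1 sample each, had been depleted of rRNA, made into directional libraries and sequenced as read pairs. Per the labels and the methods, the authors' processing used Bowtie2, GRCm38 (mm10), Partek and DESeq, and the deposited values are CPM. Many genes share the lowest value of a library, which was read as no reads. No column was left unmapped. Dataset 2 (no knockout line) was not used here. Gene starts in the file equalled those of GENCODE M21 for 302 of 13870 matched genes, so GRCm38 positions and GC content were taken from M21 by gene ID (12581 of the tested genes had a GC value).

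Here, values were transformed to log2(CPM + 0.1), genes averaging under 0.5 CPM over the libraries were dropped, and each library was set against the FAM3C KO mean. GC correction subtracted a lowess curve (span 0.3, statsmodels 0.14.6 in Python 3.11.15, pandas 2.3.3) of that difference on GC content. Values within 1% of a library's lowest were taken as no reads. Depth limits low genes, and its counting error is not replicate error. The calling code was run on simulated data, with changes well above the cut-off put into genes of higher expression. That run cannot show how reliable the calls are near the cut-off, at low expression or where clones differ widely. No test was made, because the double KO is 1 library.

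The genes named were the targeted genes, the 10 leading genes per direction of the double KO alone and 5 per direction of each shared group with at least 1 CPM (predicted genes left out), the 5 strongest FAM3C KO losses and gains, and the called members of 23 gene lists, plus LIFR pathway and cell state genes. The members and lists were chosen with earlier results of these data known. Alternatives were a pseudocount of 1 CPM, other filters, median-ratio rescaling, GC correction, a fold of 1.5 and leaving out clones. Subtraction of the lowest value and the alternatives of the genes shared with LIFR KO were added after seeing the data. Figures were drawn with matplotlib 3.10.9.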

Additional observations from a re-analysis of the deposited data

Results flagged for a closer look

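Of 130 named genes, 13 had 1 of the 4 shPCBP1 lines far from the other 3 by Dixon's ratio on the log2 scale, a rule by which chance flags about 1 in 20 groups. The unaltered line stood apart for Hmgcll1 (0.499 CPM, the CT clones at no reads), Pdcd1lg2 (1.75 CPM, the CT clones at no reads), Tspan6 (3.24 CPM against 0.0344 to 0.0640 CPM) and Rpl13 (101 CPM against 95.1 to 95.5 CPM). CT clone 3 stood apart for mt-Atp8 (115 CPM against 199 to 205 CPM), mt-Nd3 (152 against 142 to 143 CPM), Eno2 (9.69 against 7.07 to 7.42 CPM), Rps2 (652 against 480.0 to 481 CPM) and Myc (132 against 152 to 154 CPM). CT clone 2 stood apart for Jund (169 against 193 to 197 CPM) and Lif (42.7 against 54.7 to 57.1 CPM). CT clone 1 stood apart for Hoxa7 (0.120 against 7.52 to 10.9 CPM) and Cdh1 (346 against 292 to 299 CPM). For Hmgcll1, Pdcd1lg2 and Tspan6 the unaltered line had reads of genes that were high in the double KO. For Hoxa7, 3 libraries were near or under 2 CPM: CT clone 1, LIFR KO clone 2 at the value of no reads and LIFR KO clone 1 at 1.98 CPM, while the double KO had 4.26 CPM.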

How the results depend on the processing

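No paired analysis was possible because the double KO is 1 library and no test was made. The log2 difference of Lifr stayed negative under every alternative run (-1.86 to -1.43 when 1 FAM3C KO clone was left out) and that of Fam3c positive (0.15 to 0.50). Counts moved more, given in the order higher, lower, higher alone, lower alone, then higher and lower shared with LIFR KO clones 2 and 3, where they moved by over 1.5 times. A pseudocount of 1 CPM gave 64, 434, 13, 30, 19 and 186. Median-ratio rescaling gave 286, 372 and 36 for the first 3 and 92 and 105 for the shared ones, so that the called genes divided more evenly. GC correction gave 236 lower, 42 higher alone and 44 lower shared, and a fold of 1.5 gave 658, 3109, 68, 220, 327 and 1749. Without a filter on low values 174 were higher and 44 higher alone. Leaving out 1 clone at a time gave 114 to 163 higher, 739 to 898 lower, 14 to 31 higher alone (14 without FAM3C KO clone 2, 15 without LIFR KO clone 2), 83 to 115 lower alone, and 36 to 46 and 278 to 335 shared (46 without FAM3C KO clone 3). The median of all genes was -0.21 with a pseudocount of 1 CPM, -0.012 after rescaling and -0.00285 after GC correction, and -0.26 to -0.22 with 1 clone left out. Of 127 other named genes, 77 moved by more than the SD of the FAM3C KO clones under GC correction, and none of those called changed sign. The cause was not tested. Single values at or near the lowest of a library (0.0468 CPM in the double KO, read as no reads) are limited by depth.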

Other observations

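Nrtn, Jag2, Cebpb, Junb and Jund, all over 60% GC, were lower in the double KO before correction. They came within 2-fold of FAM3C KO after it. Irs1, Lamb1, Hapln4 and Tmem265, with 50.3 to 57.0% GC, kept corrected differences of -5.33 to -2.28. These are examples picked from the named genes, and others went the other way. Adra1d, at 65.4% GC, kept -1.42, and Cebpd, at 51.6%, came to -0.67. By its design the correction shrinks the drop of genes high in GC, and the cause of the drop was not tested. Rab30 and Heg1 had a gap to the LIFR KO clones. Rab30 stood at 92.3 CPM in the double KO against 5.03 CPM in the highest of these clones, and Heg1 at 14.6 against 1.13 CPM. The FAM3C KO clones also lay above the LIFR KO clones, at 14.4 to 54.9 CPM for Rab30 and 4.27 to 12.5 CPM for Heg1. The gap was thus not particular to the double KO.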
